A study of Arabidopsis with 4 samples.

Results

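WRKY transcription factors, a plant family named for a conserved amino acid motif in their DNA-binding domain, were compared between 12-day-old seedlings of the Arabidopsis mutant jmj28-2 and of the wild type Col-0. Members were the rows of the deposited table with a gene name of WRKY and a number, or with a description that names a WRKY transcription factor. This gave 71 of 32833 genes, of which 70 were found by name and 1, AT3G56390, by description only. A total of 50 reached a mean of at least 1 TPM, a transcript level scaled for transcript length and library total, over the 4 libraries and were tested, among 19764 such genes in the whole table.

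The study measured RNA of seedlings from jmj28-2 (n = 2 libraries), a mutant named for the histone demethylase gene JMJ28, and from Col-0 (n = 2 libraries), the standard laboratory accession. Both groups are in the Col-0 background and grew on medium with 1% sucrose at 23 °C in days of 16 h light and 8 h dark. The mutant group is 1 line, and the sources used here do not give the nature of its mutation. JMJ28 (AT4G21430) had 5.45 and 5.72 TPM in jmj28-2 and 7.63 and 7.70 TPM in Col-0, in the direction of the labels, but the difference missed the threshold over the whole table (limma adjusted p = 0.235, log2 change -0.40, SE 0.0963). In whole seedlings, fewer cells that express a gene and less RNA per cell cannot be told apart.

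WRKY proteins bind W box elements in promoters, many of them in the promoters of defence genes and of other WRKY genes. Immune receptors at the cell surface activate MAP kinases and calcium-dependent kinases, which phosphorylate some WRKY proteins. VQ-motif proteins bind some WRKY proteins as partners. Class I members have a pair of WRKY domains, and classes IIa to IIe and III have 1 domain and differ in sequence and in the zinc finger. Many family members are known for rapid induction by pathogens, wounding and touch, and others for leaf senescence, phosphate nutrition, or the development of trichomes, embryos and flowers.

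The highest ratios of jmj28-2 to Col-0 means among the 50 tested WRKY genes were those of WRKY40, WRKY33, WRKY53 and WRKY22, at 4.99, 2.96, 2.76 and 2.61. WRKY40, WRKY33 and WRKY22 are known for immunity and WRKY53 for leaf senescence, and none of the 4 passed the test over all genes. With limma, 0 of the 50 tested WRKY genes passed at an adjusted p under 0.05 in either direction, where 0.0405% of all tested genes were called higher and 0.0354% lower. At an unadjusted p under 0.05, 18 WRKY genes were higher and 2 lower, or 36% and 4% of those tested, against 9.50% and 4.36% of all tested genes. The lower count was 5 under each of 2 rescalings, against 6.9% and 6.68% of all tested genes, and 6 without jmj28-2 replicate 1, against 7.92%. The direction alone set the family apart little, with 30 higher and 20 lower, where 57.3% of all tested genes were higher and 42.7% lower. In 22 WRKY genes both jmj28-2 libraries lay above both Col-0 libraries, and in 8 both lay below, or 44% and 16%, against 29.0% and 17.6% of all tested genes. The jmj28-2 mean was at least 1.5 times the Col-0 mean in 12 WRKY genes (24%, against 3.47% of all tested genes), and the Col-0 mean at least 1.5 times the jmj28-2 mean in 2 (4%, against 2.55%). The median log2 change was 0.10 over the tested WRKY genes and 0.03 over all tested genes.

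**Figure D1:**
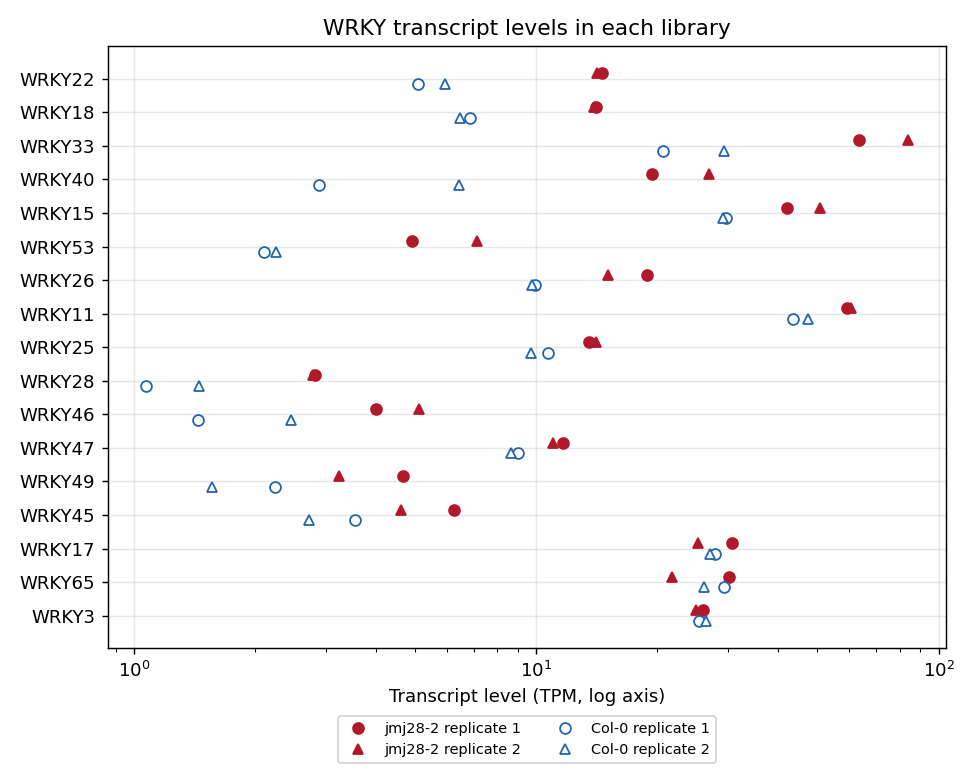
Transcript level in TPM on a log axis (horizontal) of 17 WRKY genes, the 14 with the smallest p followed by those of the 6 most abundant not among them, in each jmj28-2 library (filled red) and each Col-0 library (open blue); circles are replicate 1 and triangles replicate 2. From WRKY22 to WRKY45 both jmj28-2 points lie right of both Col-0 points, while those of WRKY17, WRKY65 and WRKY3 intermingle.

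Among the class IIa genes, whose products form complexes with each other and are known as repressors in immunity and abscisic acid signalling, WRKY40 (AT1G80840) had 19.44 and 26.89 TPM in jmj28-2 and 2.88 and 6.41 TPM in Col-0. This was the highest log2 change of the tested family members, 2.15 (SE 0.332, limma adjusted p = 0.178), but the Col-0 libraries themselves differed 2.23-fold. The ratio of the lower jmj28-2 library to the higher Col-0 library was 3.03. WRKY18 (AT4G31800) had 14.04 and 13.90 TPM in jmj28-2 and 6.86 and 6.46 TPM in Col-0, with close values within each genotype (SD 0.099 and 0.283 TPM, n = 2 each). Its log2 change was 0.97 (SE 0.0852, limma adjusted p = 0.0735), and of the settings tried it passed only with robust moderation (adjusted p = 0.0289, all settings 0.0289 to 0.414). WRKY60 (AT2G25000), the third member of the class, had 11.36 and 7.79 TPM in jmj28-2 and 8.37 and 7.63 TPM in Col-0, and these overlapped. Within a library, the level of WRKY40 was 1.71 and 3.45 times that of WRKY60 in jmj28-2, against 0.344 and 0.840 times in Col-0. WRKY40 was thus the more abundant of this pair in both jmj28-2 libraries and the less abundant in both Col-0 libraries. Whether the differences of single genes differ from each other was not tested, here or for the relatives below.

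Class I held the second most abundant member over the 4 libraries. WRKY33 (AT2G38470), required for resistance to necrotrophic fungi and for synthesis of the phytoalexin camalexin, had 63.51 and 83.84 TPM in jmj28-2 and 20.62 and 29.22 TPM in Col-0. The lower jmj28-2 library held 2.17 times the level of the higher Col-0 library, and the log2 change was 1.53 (SE 0.202, limma adjusted p = 0.142). Its relatives WRKY26 and WRKY25, known with it for heat tolerance, lay in the same direction with smaller differences. WRKY26 (AT5G07100) had 18.85 and 15.08 TPM in jmj28-2 and 9.94 and 9.73 TPM in Col-0 (log2 change 0.72, SE 0.121, limma adjusted p = 0.18). WRKY25 (AT2G30250) had 13.51 and 14.05 TPM in jmj28-2 and 10.69 and 9.68 TPM in Col-0 (log2 change 0.40, SE 0.0884, limma adjusted p = 0.224). For neither did the genotypes overlap, as in 29.0% of all tested genes in this direction. The level of WRKY33 was 4.70 and 5.97 times that of WRKY25 in jmj28-2, against 1.93 and 3.02 times in Col-0. The other 8 tested class I genes, WRKY1, WRKY2, WRKY3, WRKY4, WRKY19, WRKY20, WRKY32 and WRKY44, had ratios of means from 0.852 to 1.10. Among these are WRKY2, known for polarity of the zygote, and WRKY44, a regulator of trichomes and seed coat. WRKY3, the sixth most abundant member, had 26.03 and 24.91 TPM in jmj28-2 and 25.36 and 26.40 TPM in Col-0 (log2 change -0.02, SE 0.0683, limma adjusted p = 0.911), a direction that turned under leave-one-out.

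In class IIe, WRKY22 (AT4G01250), placed downstream of the MAP kinase cascade of flagellin perception, had 14.59 and 14.14 TPM in jmj28-2 and 5.08 and 5.94 TPM in Col-0. It had the smallest p of the family (log2 change 1.24, SE 0.104, limma adjusted p = 0.0658) and of the settings tried it passed only with robust moderation (adjusted p = 0.0232, all settings 0.0232 to 0.36). WRKY29, placed in the same pathway, had 7.36 and 6.01 TPM in jmj28-2 and 5.87 and 5.39 TPM in Col-0, and WRKY22 was 1.98 and 2.35 times as abundant as WRKY29 in jmj28-2, against 0.865 and 1.10 times in Col-0. WRKY27, known from the response to the wilt bacterium Ralstonia, had 5.03 and 5.45 TPM in jmj28-2 and 5.02 and 4.97 TPM in Col-0. WRKY14 and WRKY35, of the same class, lay the other way. WRKY14 (AT1G30650) had 8.43 and 6.22 TPM in jmj28-2 and 9.95 and 9.66 TPM in Col-0 (log2 change -0.39, SE 0.148, limma adjusted p = 0.347). WRKY35 had 3.02 and 2.54 TPM in jmj28-2 and 3.84 and 3.72 TPM in Col-0. In neither did the genotypes overlap, as in 17.6% of all tested genes in this direction. For WRKY69 the ratio of means was 1.15. Its jmj28-2 libraries both lay above both Col-0 libraries, as did those of WRKY22, WRKY29 and WRKY27 (29.0% of all tested genes). WRKY65, the fifth most abundant member, had 30.07 and 21.77 TPM in jmj28-2 and 29.29 and 26.16 TPM in Col-0 (log2 change -0.11, SE 0.16, limma adjusted p = 0.802). Its values overlapped, and its direction turned without jmj28-2 replicate 2 (log2 change 0.12).

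The class IId genes, whose products bind calmodulin, included the most abundant member. WRKY11 (AT4G31550), a negative regulator of basal resistance to bacteria, had 59.37 and 60.76 TPM in jmj28-2 and 43.39 and 47.37 TPM in Col-0 (log2 change 0.40, SE 0.0685, limma adjusted p = 0.185). WRKY15 (AT2G23320), known for leaf growth and osmotic stress, had 42.02 and 50.61 TPM in jmj28-2 and 29.55 and 29.17 TPM in Col-0 (log2 change 0.63, SE 0.101, limma adjusted p = 0.18). WRKY7 and WRKY21 also had both jmj28-2 libraries above both Col-0 libraries, as in 29.0% of all tested genes. WRKY7 had 27.75 and 25.15 TPM in jmj28-2 and 21.57 and 22.57 TPM in Col-0, and WRKY21 had 15.77 and 14.47 TPM in jmj28-2 and 12.81 and 11.78 TPM in Col-0. The remaining 2 tested members did not separate the genotypes. WRKY17, which acts with WRKY11 in basal resistance, had 30.73 and 25.22 TPM in jmj28-2 and 27.89 and 27.06 TPM in Col-0 (log2 change 0.02, SE 0.107, limma adjusted p = 0.954). The sign for WRKY17 turned under both rescalings. WRKY39 had 18.20 and 17.25 TPM in jmj28-2 and 18.31 and 17.74 TPM in Col-0.

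**Figure D2:**
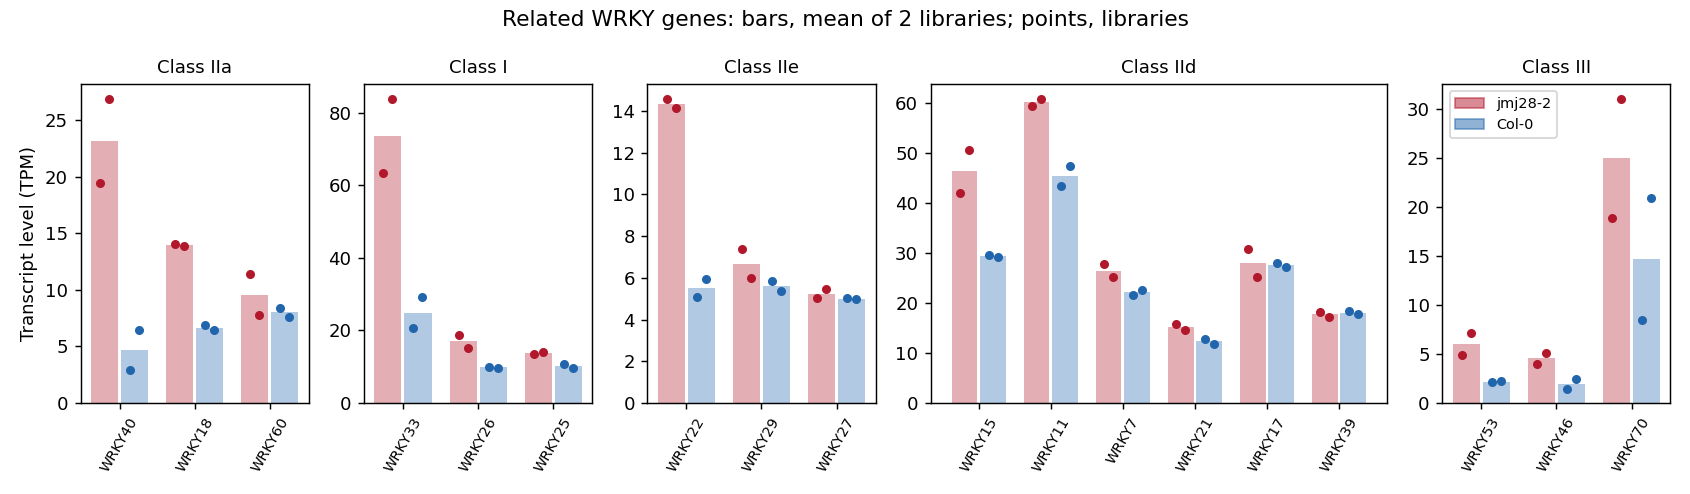
Transcript levels in TPM (vertical, from 0, with a separate scale in each panel) of related WRKY genes of classes IIa, I, IIe, IId and III in jmj28-2 (red, left of each pair) and Col-0 (blue); bars are means of 2 libraries and points are the libraries. WRKY40, WRKY33 and WRKY22 stand 4.99, 2.96 and 2.61 times higher in jmj28-2, and the relatives beside them in the same panels 2.1 (WRKY18), 1.2 (WRKY60), 1.72 (WRKY26), 1.35 (WRKY25), 1.19 (WRKY29) and 1.05 times (WRKY27).

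All 3 tested class III genes were higher in jmj28-2 (57.3% of all tested genes), but the libraries of 1 of them overlapped. WRKY53 (AT4G23810), a positive regulator of leaf senescence, had 4.90 and 7.10 TPM in jmj28-2 and 2.1 and 2.25 TPM in Col-0 (log2 change 1.12, SE 0.188, limma adjusted p = 0.18). WRKY46 (AT2G46400), which acts with WRKY53 and WRKY70 in basal resistance, had 4 and 5.11 TPM in jmj28-2 and 1.44 and 2.46 TPM in Col-0 (log2 change 0.93, SE 0.224, limma adjusted p = 0.235). WRKY70, a node between salicylic acid and jasmonate signalling and a negative regulator of senescence, had 18.85 and 30.99 TPM in jmj28-2 and 8.49 and 20.85 TPM in Col-0. The Col-0 libraries of WRKY70 differed 2.46-fold, the widest Col-0 ratio of the tested members, and its genotype difference did not exceed that spread (log2 change 0.81, SE 0.436, limma adjusted p = 0.481). The other 10 class III members were not tested. Among them WRKY54, a close partner of WRKY70, had 0.83 and 1.44 TPM in jmj28-2 and 0.97 and 0.51 TPM in Col-0. WRKY55 had 0.33 and 0.42 TPM in jmj28-2 and 0.06 and 0.14 TPM in Col-0.

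In class IIc, 4 genes were higher at an unadjusted p under 0.05 and 1 lower among 12 tested, against 9.50% and 4.36% of all tested genes. WRKY28 (AT4G18170), known to act on the salicylic acid synthesis gene ICS1, had 2.81 and 2.78 TPM in jmj28-2 and 1.07 and 1.45 TPM in Col-0 (log2 change 0.75, SE 0.177, limma adjusted p = 0.232). WRKY49 (AT5G43290) had 4.66 and 3.24 TPM in jmj28-2 and 2.24 and 1.56 TPM in Col-0 (log2 change 0.77, SE 0.216, limma adjusted p = 0.264). WRKY45 (AT3G01970), an activator of the phosphate transporter gene PHT1;1, had 6.23 and 4.61 TPM in jmj28-2 and 3.54 and 2.72 TPM in Col-0 (log2 change 0.63, SE 0.185, limma adjusted p = 0.271). The genotypes did not overlap in any of these 3, as in 29.0% of all tested genes in this direction. WRKY48, a repressor of basal defence, had 3.30 and 3.21 TPM in jmj28-2 and 2.13 and 2.30 TPM in Col-0. WRKY50, of the cross-talk between salicylic acid and jasmonate, lay the other way at 0.80 and 0.64 TPM in jmj28-2 and 1.38 and 1.68 TPM in Col-0 (log2 change -0.56, SE 0.21, limma adjusted p = 0.344). It was the 1 tested gene with a mean under 1 TPM in 1 genotype, so its place among those tested rests on its Col-0 level. WRKY75, a regulator of phosphate starvation responses and close to WRKY45 in sequence, had 3.42 and 4.27 TPM in jmj28-2 and 5.51 and 3.74 TPM in Col-0, which overlapped. The other 6 tested genes of the class, WRKY13, WRKY23, WRKY24, WRKY43, WRKY56 and WRKY57, had ratios of means from 0.632 to 1.18.

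In class IIb, WRKY47 (AT4G01720) had 11.67 and 10.98 TPM in jmj28-2 and 9.01 and 8.64 TPM in Col-0 (log2 change 0.33, SE 0.0865, limma adjusted p = 0.253). WRKY6, a regulator of senescence and of the phosphate exporter gene PHO1, had 15.47 and 13.53 TPM in jmj28-2 and 12.20 and 11.16 TPM in Col-0. In both, the jmj28-2 libraries lay above the Col-0 libraries without overlap, as in 29.0% of all tested genes. The other 6 members, WRKY9, WRKY31, WRKY36, WRKY42, WRKY61 and WRKY72, had ratios from 0.765 to 1.15. WRKY36 had 11.79 and 9.5 TPM in jmj28-2 and 12.21 and 13.34 TPM in Col-0. Its jmj28-2 libraries thus lay below without overlap, as in 17.6% of all tested genes.

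**Figure D3:**
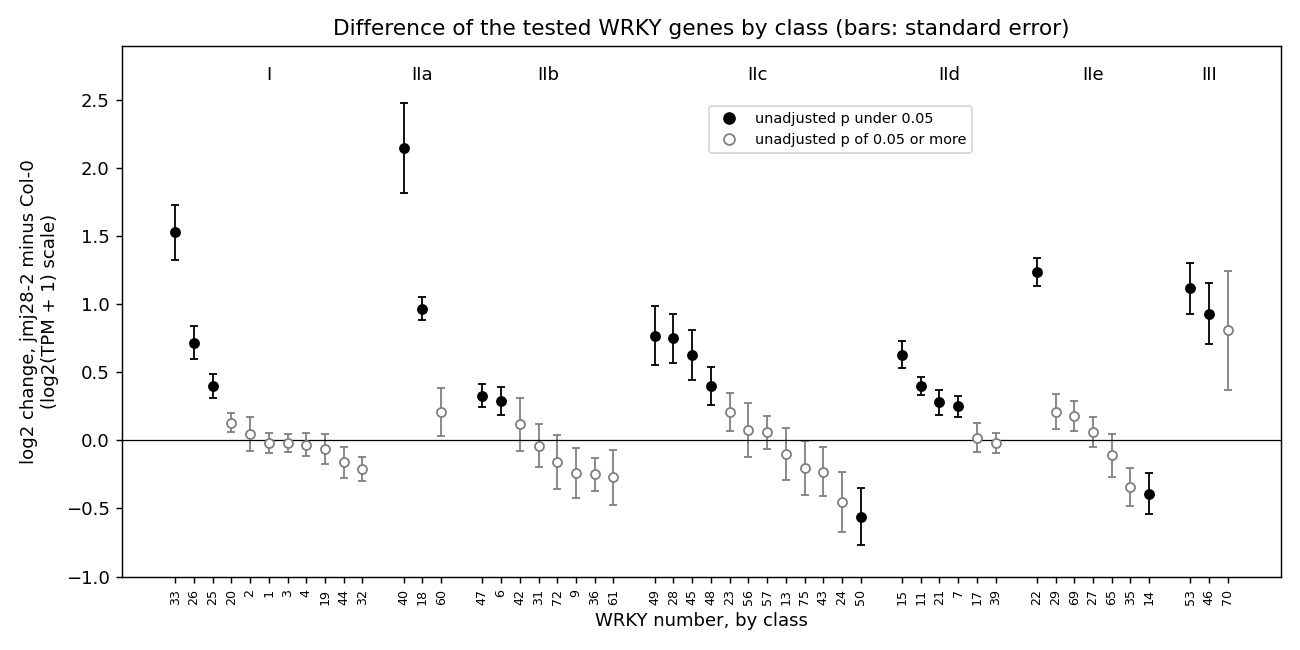
Log2 change, jmj28-2 minus Col-0, on the log2(TPM + 1) scale (vertical) with its standard error for the 50 tested WRKY genes, labelled by number and grouped by class from I to III; filled points have an unadjusted p under 0.05. The filled points comprise 18 above 0 and 2 below 0 (WRKY50 and WRKY14), and the highest is WRKY40 at 2.15.

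Sorted by known role in place of class, 11 of the 18 tested immunity genes were higher at an unadjusted p under 0.05 and 1, WRKY50, lower, with a median log2 change of 0.40; over all tested genes these shares were 9.50% and 4.36%, also for the roles and lists that follow. Summed over all 26 immunity members, transcripts reached 324.43 and 349.4 TPM in jmj28-2, against 191.72 and 219.02 TPM in Col-0. Of the 6 genes known for senescence or phosphate, 3 were higher and 0 lower (median 0.21). Of the 4 tested genes of development and flowering, 0 were higher or lower at that threshold (median -0.03). The 20 tested genes with another role or none assigned, WRKY15 among them, had 4 higher and 1 lower (median -0.04), and the last 2 tested genes, WRKY39 and WRKY61, had 0. Each gene was given 1 role, so that WRKY25 and WRKY26 stand under immunity although they are also known for heat tolerance. The roles were assigned with results of these data known, and each median stands beside the 0.03 of all tested genes. The share of higher genes was not confined to one range of levels, at 6 of 19 tested WRKY genes with a mean of 1 to 5 TPM (4.75% of all genes there), 1 of 8 at 5 to 10 TPM (7.77%) and 11 of 23 from 10 TPM upwards (11.9%).

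The genotypes did not overlap in any of the 18 higher genes, so their lowest library had to be a Col-0 one. It was Col-0 replicate 1 for 9 and Col-0 replicate 2 for 9. Leaving out 1 library leaves 1 in its genotype, which is then assumed to vary like the other genotype's pair. In such fits, at the same threshold, 11 WRKY genes were higher without jmj28-2 replicate 1 (6.8% of all tested genes), 17 without jmj28-2 replicate 2 (8.9%), 13 without Col-0 replicate 1 (6.01%) and 12 without Col-0 replicate 2 (4.52%). Over the 50 tested WRKY genes, jmj28-2 replicate 2 was the lowest library for 17 (34%), against 31.6% of all tested genes.

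Of the 21 members not tested, 6 were listed at 0 in every library: AT3G56390, WRKY34, WRKY64, WRKY66, WRKY67 and WRKY68. WRKY34 is known from pollen. WRKY63, of the same gene cluster as WRKY64 and WRKY67, had at most 0.18 TPM, and reads of such near-identical copies may be divided uncertainly. The values nearest the threshold were those of WRKY50, with a mean of 1.12 TPM, and WRKY56, with 1.34 TPM, on the tested side. On the other side, WRKY30 had a mean of 0.99 TPM, with 1.13 and 1.75 TPM in jmj28-2 and 0.91 and 0.17 TPM in Col-0, and WRKY54 had a mean of 0.938 TPM. The flowering and branching regulator WRKY71 had 1.09 and 0.75 TPM in jmj28-2 and 0.52 and 0.63 TPM in Col-0, and WRKY12, known for flowering and for cell walls of the pith, had 0.55 and 0.76 TPM in jmj28-2 and 0.78 and 0.79 TPM in Col-0. The remaining members, WRKY8, WRKY10, WRKY38, WRKY41, WRKY51, WRKY55, WRKY58, WRKY59, WRKY62 and WRKY74, had means of 0.03 to 0.675 TPM.

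Genes overlapping a neighbour in the RefSeq annotation number 11 among the tested members, and the sources used here do not say whether strand was used in counting. The overlapping neighbours of the 3 tested WRKY genes with the highest ratios did not share their differences. AT2G38480, which overlaps WRKY33 as does AT2G08965 (listed at 0 in every library), had 7.56 and 8.18 TPM in jmj28-2 and 9.92 and 9.79 TPM in Col-0, the opposite direction. AT1G80850, which overlaps WRKY40, had 8.68 and 6.82 TPM in jmj28-2 and 7.02 and 7.83 TPM in Col-0. HMGB6, which overlaps WRKY53, had 93.46 and 103.22 TPM in jmj28-2 and 98.10 and 92.10 TPM in Col-0.

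Another list holds kinases, receptors and partners that act on WRKY proteins or upstream of them. Of its 20 tested genes, 4 were higher (9.50% of all tested genes) and 0 lower (4.36%) at an unadjusted p under 0.05. With adjustment over all genes, 0 of these 20 passed with limma. BIK1, a cytoplasmic kinase of pattern-triggered immunity, had 19.17 and 18.71 TPM in jmj28-2 and 12.69 and 11.51 TPM in Col-0 (log2 change 0.61, SE 0.0829, limma adjusted p = 0.143). MPK3, a MAP kinase that phosphorylates WRKY33, had 58.22 and 72.32 TPM in jmj28-2 and 42.14 and 46.31 TPM in Col-0 (limma adjusted p = 0.224). MKK9, of the MAP kinase cascades, and CPK4, a calcium-dependent kinase, completed the 4. MPK6, which acts beside MPK3 on WRKY33, had 41.71 and 37.77 TPM in jmj28-2 and 38.80 and 39.72 TPM in Col-0, and these overlapped (limma adjusted p = 0.943).

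Among 13 tested defence genes known as outputs of WRKY factors, 6 were higher at an unadjusted p under 0.05 (9.50% of all tested genes), 0 were lower (4.36%) and 0 passed with limma over all genes (median log2 change 0.35). FRK1, a receptor kinase gene used as a marker of flagellin responses, had 5.07 and 3.68 TPM in jmj28-2 and 1.10 and 1.15 TPM in Col-0 (log2 change 1.33, SE 0.187, limma adjusted p = 0.146). CYP81F2, of indole glucosinolate synthesis, had 6.41 and 8.27 TPM in jmj28-2 and 3.84 and 3.84 TPM in Col-0 (limma adjusted p = 0.207). ACS6, of ethylene synthesis and bound by WRKY33, had 34.70 and 39.71 TPM in jmj28-2 and 10.21 and 21.65 TPM in Col-0 (limma adjusted p = 0.248). PAD3, the last enzyme of camalexin synthesis and a target of WRKY33, had 4.96 and 5.13 TPM in jmj28-2 and 3.69 and 3.81 TPM in Col-0, a smaller ratio of 1.35. PAD3 lies outside the naming rule and was chosen after its values were seen. CBP60G and NUDT7 made up the 6. Of those that were not higher at that threshold, also named after their values were seen, the salicylic acid synthesis gene ICS1, the defence peptide gene PROPEP1 and the pathogenesis-related gene PR1 had overlapping libraries and ratios of means of 1.11, 0.925 and 0.945.

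The tested genes induced within minutes by touch or wounding lay in the same direction as the higher WRKY genes above. All 15 tested had both jmj28-2 libraries above both Col-0 libraries (29.0% of all tested genes), 12 were higher (9.50%) and 0 lower (4.36%) at an unadjusted p under 0.05, and 0 passed with limma over all genes (median log2 change 0.94). Summed over the 17 genes of the list, levels were 617.4 and 780.4 TPM in jmj28-2, against 261.8 and 416.6 TPM in Col-0, and the Col-0 libraries thus differed as well. SZF1, a zinc finger gene, had 67.67 and 91.20 TPM in jmj28-2 and 17.02 and 33.13 TPM in Col-0, while the calmodulin-like TCH3 had 151.06 and 220.23 TPM in jmj28-2 and 68.33 and 84.34 TPM in Col-0. SZF2 and the cell wall enzyme gene TCH4 had log2 changes of 0.94 and 0.83. The labels do not describe handling or harvest, and the part of touch or wounding in the WRKY differences was not tested. None of the list's genes was at 0 in all libraries. Under the filter, CML37 had 0.59 and 0.57 TPM in jmj28-2 and 0.27 and 0.48 TPM in Col-0. CML39 lay the other way, at 0.4 and 0.34 TPM in jmj28-2 and 0.71 and 0.69 TPM in Col-0.

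Senescence genes outside the family had 4 of 10 tested members higher (9.50% of all tested genes) and 0 lower (4.36%) at an unadjusted p under 0.05, and 0 passed with limma over all genes (median log2 change 0.34). The dark-induced SEN1 had 43.24 and 42.92 TPM in jmj28-2 and 29.39 and 24.97 TPM in Col-0 (limma adjusted p = 0.146). SAG20, SEN4 and SAG101 were the other three. SAG12, the protease gene of late senescence, was listed at 0 in every library. Root markers were lower in 17 of 19 cases (42.7% of all tested genes), and their summed level was 2359 and 1873 TPM in jmj28-2 and 2245 and 2198 TPM in Col-0. Their median lay at -0.44 log2 from the mean of the libraries in jmj28-2 replicate 2, against 0.12 in replicate 1 and 0.15 in both Col-0 libraries, with FIT and MRN1 lower at an unadjusted p under 0.05 (4.36% of all tested genes). Leaf markers were lower in 12 of 14 (42.7% of all tested genes), 7 of them at that threshold (4.36%), with RBCS2B, CA1, GOX1 and RCA at the smallest p. Their sums were 83490 and 86120 TPM in jmj28-2 and 91800 and 90890 TPM in Col-0. None of the 19 root and 14 leaf markers was at 0 in all libraries, 0 passed with limma over all genes, and their part in the WRKY differences was not tested.

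**Figure D4:**
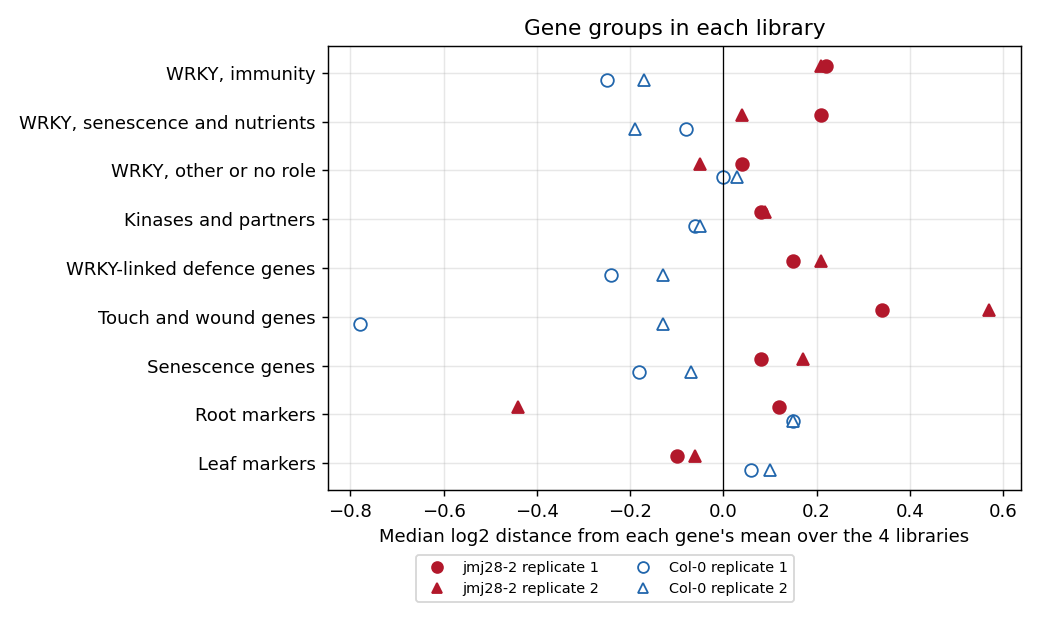
Median distance in log2(TPM + 1) from each gene's mean over the 4 libraries (horizontal), over the tested genes of WRKY role groups, other gene lists and tissue markers, in each jmj28-2 library (filled red) and Col-0 library (open blue); circles are replicate 1 and triangles replicate 2. WRKY immunity genes lie at 0.22 and 0.21 in jmj28-2 and at -0.25 and -0.17 in Col-0, touch and wound genes at 0.34 and 0.57 in jmj28-2 and at -0.78 and -0.13 in Col-0, and root markers stand apart in jmj28-2 replicate 2.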

How the data were processed

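RNA of 4 seedling libraries was measured. Genotype and replicate were read from the labels, and 0 value columns of the table lacked a library. The authors deposited values rounded to 2 decimals under the name FPKM, but each column sums to between 998943 and 999014, as TPM do, so the deposited values were used as TPM. The submitters' processing notes name TopHat, RSEM, edgeR and build TAIR10; for versions, filters and strand use the sources used here give nothing. Depth is not kept in TPM and is unknown, and an exact 0 can be a failed estimate. Between 19606 and 19751 genes per library reached 1 TPM.

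Genes averaging at least 1 TPM were transformed as log2(TPM + 1), which understates changes of low genes. The model, in limma 3.58.1 under R 4.3.3, held genotype alone and moderated variances along an intensity trend (2 residual, 3.18 prior degrees of freedom). P-values are two-sided and Benjamini-Hochberg adjusted over all 19764 genes. The labels name no separate cultures behind the libraries, so p-values measure only the spread between them, which can be technical. The script was checked on simulated data.

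Members and lists were chosen with earlier results of these data known. Classes and roles come from general knowledge. Every member is named, and those in full are JMJ28, the 14 members with the smallest p and the 6 most abundant. Each list gives up to 4 genes by the smallest p. MPK6, PAD3, NUDT7, ICS1, PROPEP1, PR1, CML37, CML39 and SAG12 were named outside this rule. Names come from the table and from RefSeq on TAIR10.1, which matched all 71 members; SEN1 and FLS2, whose symbols are shared by other genes, were set by identifier after the data were seen. Alternatives were another pseudocount, filters, moderation settings, rescalings, a replicate block and leaving out each library. Sequences were not used here. Figures were drawn with matplotlib 3.10.9.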

Additional observations from a re-analysis of the deposited data

How the results depend on the processing

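All 12 alternatives were planned. The number of WRKY genes called higher, 0 as reported, was 2 with robust moderation (WRKY22 and WRKY18) and 2 with the replicate block (WRKY33, adjusted p = 0.0221, and WRKY40, adjusted p = 0.0476), and 0 under the others, where leaving out 1 library gave 0 to 0. WRKY genes called lower stayed at 0. The labels do not say whether the replicate numbers pair the libraries. The correlation of replicate deviations across all tested genes was 0.0162, which cannot decide on pairing within a part of the genes. For both WRKY33 and WRKY40, replicate 2 was above replicate 1 in each genotype. A block favours genes with such parallel gaps, so this pattern in genes that it called cannot decide on pairing either. The block gave 12 genes called higher over all genes. The filters change how many WRKY genes are tested, so counts under them have other totals than the 50 of the remaining settings. Under the 5 TPM filter, 12 of 31 tested WRKY genes were higher at an unadjusted p under 0.05, against 11% of all tested genes. With no filter, 16 of 71 were higher at that threshold, against 6.38%. WRKY genes higher at an unadjusted p under 0.05, 18 as reported, numbered 12 to 18 with all libraries and 11 to 17 when 1 was left out. WRKY genes lower, 2 as reported, were 1 at pseudocount 0.1, 1 under the 5 TPM filter, 5 under each rescaling, 1 with the replicate block, and 0 to 6 when 1 library was left out. The WRKY median, 0.10 as reported, was 0.21 under the 5 TPM filter, which left 31 genes. All genes called higher, 8 as reported, were 29 with robust moderation, 4 with no filter, 3 with no trend and 0 to 10 when 1 library was left out; those called lower, 7 as reported, were 14 with robust moderation, 4 under the 5 TPM filter and 0 to 1 when 1 was left out. The direction turned for WRKY17 under quantile normalization (-0.03) and median-of-ratios rescaling (-0.01) and when 1 library was left out (-0.12 to 0.16), for WRKY65 when 1 was left out (-0.33 to 0.12) and for WRKY3 likewise (-0.05 to 0.01). It held for the 14 genes with the smallest p and JMJ28 under every alternative run on them. For WRKY53, WRKY28, WRKY46, WRKY49 and WRKY45 this leaves out the 5 TPM filter. The libraries of these genes did not overlap between genotypes, so only the rescalings could have turned their direction. The causes were not tested, apart from fewer genes or libraries where the setting removes them. Among the other 33 tested members, 10 changed sign under at least 1 alternative and 0 were called.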
